A study of Mus musculus with 14 samples.

Results

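Trincr1 (Gm2694 in the annotation) is a long intergenic noncoding RNA of mouse embryonic stem cells (ESCs) that was named for its interaction with the protein TRIM71. The comparison described here is between Trincr1-/- and wild-type ESCs that were both kept in 2i + LIF, 2 samples of each genotype out of 14 samples in the series. All 4 samples were ESCs from a C57BL/6(F) x 129/sv(M) cross, grown without feeder cells on gelatin in N2B27 with the MEK inhibitor PD0325901 at 1 μM, the GSK3 inhibitor CHIR99021 at 3 μM and leukemia inhibitory factor (LIF) at 1000 units per ml. The wild-type group carried no edit, and in the knockout the genomic stretch with exons 2 to 4 of Trincr1 was targeted by a pair of guide RNAs, which leaves the first exon outside the deletion. The labels do not say whether both knockout samples came from 1 clone, nor whether samples of a group were separate cultures, so p-values measure the spread between these samples. A difference between the cell lines that arose apart from the deletion cannot be told apart from an effect of the genotype. An effect of the knockout below thus means a difference between these samples of the genotypes. The other RNA-seq samples, 2 per genotype, had 24 h in 2i + LIF after plating, followed by 4 days in PD + LIF, a medium that lacks CHIR99021. They entered the fit for the estimate of the spread and are described only beside the 2i + LIF values. Every gene of the table with a mean above 0.2 FPKM (fragments per kilobase of transcript, scaled to sequencing depth) over the 8 samples was tested, 15430 of 41204 genes.

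In 2i + LIF, the MEK inhibitor blocks the last step before ERK in the FGF pathway, the GSK3 inhibitor stabilizes β-catenin and so activates Wnt target genes, and LIF acts through STAT3. ESCs in this medium hold the naive state of the early epiblast, with high levels of naive transcription factors and of the adhesion molecule E-cadherin. TRIM71 is an RNA-binding ubiquitin ligase whose mRNA is a target of let-7 microRNAs, and SHCBP1 is a protein that carries signal from FGF receptors towards ERK. ESC colonies are epithelial in form: their cells hold together by E-cadherin, EpCAM, claudins and the apical Crumbs complex. The zinc finger protein SNAI1 represses such genes through the E-box, and GRHL2 activates them, so both are switches of epithelial identity.

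The labelled cell type was seen in all 4 samples. The 10 ESC markers summed to 3853 and 3972 FPKM in wild-type and to 3697 and 3740 FPKM in Trincr1-/- ESCs. Markers of fibroblasts summed to at most 1.64 FPKM in any of the 4 samples, of endoderm to 1.85, of mesoderm to 3.67, of trophoblast to 6.28 and of neural cells to 16.2 FPKM, and Dcn, Dcx, Afp, Ttr, Mesp1 and Msgn1 were at 0 throughout. The depth, estimated from the steps between low values, was 12100000, 12200000, 12200000 and 10300000 fragments, with the second knockout sample the shallowest. In a library of that depth, 1 fragment on 1000 bases is worth 0.0817 to 0.0974 FPKM. Mitochondrial transcripts took 2.71% to 2.95% of the FPKM sum.

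Trincr1 itself was nearly lost. Gm2694, on chromosome 8 at 87472811 to 87525554 (GRCm38), was measured at 5.7 and 9.45 FPKM in wild-type ESCs and at 0.0754 and 0 FPKM in Trincr1-/- ESCs (log2 fold change -3.01, standard error 0.23, adjusted p = 0.00317, limma with Benjamini-Hochberg adjustment). One knockout sample had no fragment of it, and the other had a value under that of 1 fragment on 1000 bases. In PD + LIF, Gm2694 was at 6.18 and 6.56 FPKM in wild-type and still detected at 1.38 and 0.746 FPKM in Trincr1-/- ESCs, so the knockout samples of that medium held more of it than those of 2i + LIF. No gene nearby was called with Gm2694 in 2i + LIF. Of the 24 other genes tested within 2 Mb, 0 passed the threshold in limma, and their median log2 fold change was -0.04. Cbln1, a secreted synaptic protein that begins 219 bases away, was at 1.0 and 1.61 FPKM in wild-type and 0.996 and 0.69 FPKM in Trincr1-/- ESCs (adjusted p = 0.438). Zfp423, a zinc finger protein 136255 bases from Gm2694, had the highest log2 fold change in this window, 1.10, with 1.24 and 1.07 FPKM in wild-type and 6.2 and 1.98 FPKM in Trincr1-/- ESCs. Its knockout samples differed from each other by more than the smaller of them differed from wild type, and its adjusted p was 0.224. In PD + LIF, Zfp423 was at 3.4 and 3.53 FPKM in wild-type and at 5.86 and 7.54 FPKM in Trincr1-/- ESCs, and did not pass in limma either (adjusted p = 0.209).

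The genes next to Trincr1 in the proposed pathway did not pass the test at the mRNA level in 2i + LIF. Trim71 was at 34 and 31.8 FPKM in wild-type and at 34.7 and 33.6 FPKM in Trincr1-/- ESCs, with a 95% interval of the log2 fold change of -0.07 to 0.18. Shcbp1 was at 29.5 and 32.8 and 31.9 and 30.6 FPKM, with an interval of -0.18 to 0.19. The genotypes overlapped in both genes in this medium. In PD + LIF both were called higher in limma, Trim71 with a log2 fold change of 0.26 (adjusted p = 0.0259) and Shcbp1 with 0.31 (adjusted p = 0.0447). The difference between media did not pass for either (adjusted p = 0.202 and 0.198). In 2i + LIF, 0 of the 18 genes for Trim71, Lin28 and microRNA machinery passed the threshold in limma. An unadjusted p under 0.05 was found for 5, 3 higher and 2 lower, beside 14.6% of all genes tested. Among them were the let-7 targets Hmga2, at 7.09 and 5.64 FPKM in wild-type and 10.3 and 10.2 FPKM in Trincr1-/- ESCs (adjusted p = 0.0745), and Lin28b, an inhibitor of let-7 maturation, at 2.07 and 1.98 and 1.06 and 0.732 FPKM (adjusted p = 0.0644). These values lie in opposite directions.

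Between Trincr1-/- and wild-type ESCs, 186 genes differed at an adjusted p-value under 0.05 in limma, 1.21% of those tested. Of these, 54 rose and 132 fell. Called genes had a median log2 fold change of 0.73 when higher and -0.83 when lower, and 59 of them had one beyond 1 in size. Both samples of one genotype lay above both of the other in all 186, as they did in 44.4% of all genes tested. Of the 186, 175 are protein-coding, 5 are pseudogenes, 3 are antisense RNAs and 2 are lincRNAs. The log2 fold changes are on the log2(FPKM + 1) scale, as are all ranks by size given here, whereas a change written as N-fold is the ratio of the mean FPKM, which puts low genes further up. The median over all genes was 0.00, and an unadjusted p under 0.05 was found for 2253 genes (14.6%). The spread behind these tests comes from all 8 samples. With only the 4 samples of 2i + LIF in the fit, 0 genes passed the threshold while 2106 had an unadjusted p under 0.05, and leaving out 1 sample of the fit gave 40 to 113 calls, fewest without the second knockout sample in 2i + LIF. Of the 186, 22 passed whichever of the 8 samples was left out: 21 that were lower, and Grhl2, which was higher. Another 62 of the 186 were lost whichever sample was left out. Of the genes named here these are Tnfrsf19, Cd200, S100a13, Ifitm1 and Hexa, which rose, and Spint1, Tjp3, Cgn, Rab25, Klk10, Tmem102, Pnma5, Gm3336, Xlr4a, Xlr5b and Xlr5c, which fell.

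**Figure D1:**
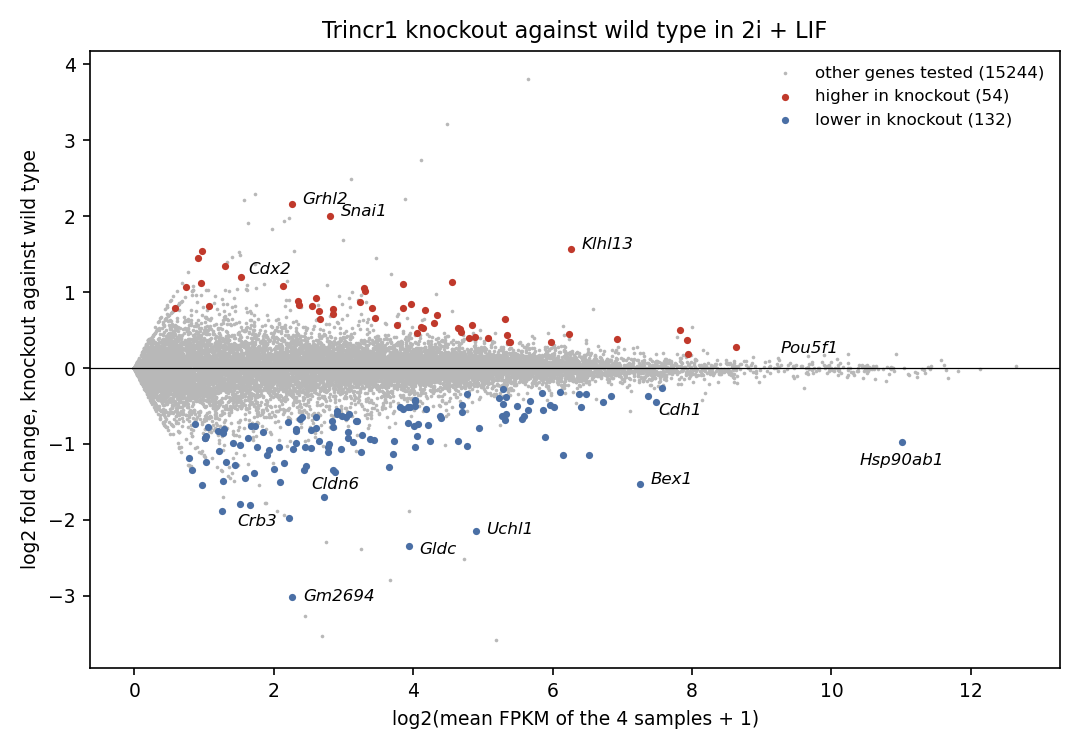
Each point is one of the 15430 genes tested, with log2(mean FPKM of the 4 samples in 2i + LIF + 1) on the x axis and the log2 fold change of Trincr1-/- against wild-type ESCs on the y axis. The 54 higher genes (red) and 132 lower genes (blue) past an adjusted p of 0.05 are few among the others (grey), and Gm2694 is the lowest called gene at -3.01. Grey points further out are genes that did not pass, given the spread estimated from all 8 samples.

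Epithelial genes made up the list with the most calls. Of 29 epithelial identity genes tested, 13 fell and 1 rose, against 0.855% of all genes that fell and 0.350% that rose. This list, like the others, was assembled with earlier results of these data known, so these shares are no independent test of it. Their median log2 fold change was -0.49, beside 0.00 over all genes, and 26 of the 29 had a value below 0. The 13 cover claudins, the Crumbs complex, adhesion molecules, serine protease inhibitors and scaffold proteins of the tight junction. The count depends on the samples in the fit: without 1 sample of 2i + LIF 2 to 4 members were called lower, without 1 sample of PD + LIF 6 to 9, and with the 4 samples of 2i + LIF alone 0, while the median lay between -0.45 and -0.51 in all of these fits.

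The promoters of these genes are shown because the letters of the E-box, CAGGTG and its reverse complement CACCTG, are frequent in them. Windows of 300 bases, 250 before to 50 after the RefSeq start site (GRCm38.p6), were at hand for 11 of the 13 genes, and 9 of these 11 (81.8%) hold at least 1 of the hexamers. All promoters of the same length hold one in 22.6% of 27025 genes, and those of the genes tested in 21.9%. The share was alike for epithelial genes that were called and that were not: the hexamer was found in 8 of 10 epithelial genes that were not lower (80.0%), and among genes that fell but are not on the list in 36 of 90 (40.0%). Genes that rose held it in 11 of 41 (26.8%). The promoters of Cgn and Spint1 hold none. The letters AACCGGTT, bound by GRHL proteins, occur in 0 of the 11 windows and in 0.174% of all genes. Cdh1 and St14 have no window in the table that was used. A match is a run of letters and says nothing of binding. In the sequences below, capitals mark the E-box hexamers.
Crb3, chr17:57061951-57062250, plus strand: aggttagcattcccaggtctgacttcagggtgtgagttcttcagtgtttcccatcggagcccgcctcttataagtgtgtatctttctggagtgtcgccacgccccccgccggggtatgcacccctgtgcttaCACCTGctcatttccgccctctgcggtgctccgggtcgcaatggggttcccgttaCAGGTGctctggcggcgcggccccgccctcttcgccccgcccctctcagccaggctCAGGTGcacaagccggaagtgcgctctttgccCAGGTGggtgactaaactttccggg
Lsr, chr7:30973420-30973719, minus strand: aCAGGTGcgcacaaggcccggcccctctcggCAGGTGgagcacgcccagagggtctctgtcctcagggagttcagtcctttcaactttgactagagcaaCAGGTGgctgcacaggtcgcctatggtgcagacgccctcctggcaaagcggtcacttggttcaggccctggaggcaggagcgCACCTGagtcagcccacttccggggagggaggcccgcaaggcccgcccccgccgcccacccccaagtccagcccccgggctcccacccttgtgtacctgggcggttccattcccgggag
Epcam, chr17:87635729-87636028, plus strand: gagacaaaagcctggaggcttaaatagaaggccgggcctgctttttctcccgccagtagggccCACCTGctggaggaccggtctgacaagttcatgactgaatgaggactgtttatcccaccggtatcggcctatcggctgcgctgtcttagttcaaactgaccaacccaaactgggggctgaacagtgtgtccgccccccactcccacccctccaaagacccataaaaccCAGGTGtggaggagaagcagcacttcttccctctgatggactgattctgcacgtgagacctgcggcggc
Cldn4, chr5:134946885-134947184, minus strand: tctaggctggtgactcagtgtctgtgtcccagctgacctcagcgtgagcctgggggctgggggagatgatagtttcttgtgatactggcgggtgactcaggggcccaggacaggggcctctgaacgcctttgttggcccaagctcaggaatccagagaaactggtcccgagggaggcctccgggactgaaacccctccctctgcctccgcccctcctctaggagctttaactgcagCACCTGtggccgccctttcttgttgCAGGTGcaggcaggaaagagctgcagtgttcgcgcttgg
Cldn6, chr17:23679115-23679414, plus strand: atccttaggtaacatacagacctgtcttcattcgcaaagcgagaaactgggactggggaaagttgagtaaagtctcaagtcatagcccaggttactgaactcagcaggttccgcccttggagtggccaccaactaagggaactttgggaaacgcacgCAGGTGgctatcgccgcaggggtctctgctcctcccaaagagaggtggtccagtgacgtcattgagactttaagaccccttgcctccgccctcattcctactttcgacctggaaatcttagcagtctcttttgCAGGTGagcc
Spint2, chr7:29281928-29282227, minus strand: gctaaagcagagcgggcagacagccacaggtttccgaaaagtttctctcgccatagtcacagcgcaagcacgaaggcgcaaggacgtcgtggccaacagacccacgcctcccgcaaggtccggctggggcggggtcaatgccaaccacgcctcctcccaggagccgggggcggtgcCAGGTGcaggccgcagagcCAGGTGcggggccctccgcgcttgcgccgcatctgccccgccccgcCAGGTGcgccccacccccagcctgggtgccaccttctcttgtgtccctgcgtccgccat

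The window of Crb3 holds 4 hexamers, which begin at -118, -63, -7 and 25 from the start site. Lsr holds 4, Spint2 holds 3, and Epcam, Cldn4 and Cldn6 hold 2 each. These 6 genes span fold decreases from 1.41 to 7.17.

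Crb3 encodes a small transmembrane protein of the Crumbs complex that marks the apical side of epithelial cells. It was at 6.85 and 5.99 FPKM in wild-type and at 1.09 and 0.696 FPKM in Trincr1-/- ESCs, a 7.17-fold decrease (log2 fold change -1.97, standard error 0.20, adjusted p = 0.00761). It had the largest fall of the list on the log2(FPKM + 1) scale, and both knockout samples lay far below either wild-type sample. Lsr, which builds the contacts at the corners of epithelial cells, was at 5.06 and 4.3 FPKM in wild-type and 1.6 and 1.92 FPKM in Trincr1-/- ESCs (log2 fold change -1.04, adjusted p = 0.0121).

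Claudins form the strands of the tight junction. Cldn6, a claudin of the epiblast and early embryo, was at 7.56 and 5.96 FPKM in wild-type and at 1.97 and 2.12 FPKM in Trincr1-/- ESCs (log2 fold change -1.34, standard error 0.10, adjusted p = 0.0032), and it passed whichever sample was left out. Cldn3 was at 4.6 and 3.73 FPKM in wild-type and at 1.34 and 1.31 FPKM in Trincr1-/- ESCs (log2 fold change -1.15, adjusted p = 0.00907). Its neighbour on chromosome 5, Cldn4, was more abundant and changed less, from 58.1 and 56 to 33.4 and 37.4 FPKM (log2 fold change -0.68, adjusted p = 0.0201). Cldn7 and Ocln, which encodes occludin of the same strands, had log2 fold changes of -1.25 and -1.27. Their standard errors in the fit of all 8 samples were larger, with adjusted p-values of 0.0882 and 0.0603. In Ocln, both wild-type samples (2.7 and 2.83 FPKM) lay above both knockout samples (0.606 and 0.507 FPKM).

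Among adhesion molecules, Cdh1 (E-cadherin) was by far the most abundant and its change was small. It was at 188 and 182 FPKM in wild-type and at 138 and 150.4 FPKM in Trincr1-/- ESCs, a 1.29-fold decrease (log2 fold change -0.36, standard error 0.05, adjusted p = 0.0221). Epcam, an adhesion molecule of ESCs and epithelia, was at 21.5 and 20.2 FPKM in wild-type and at 10.8 and 8.6 FPKM in Trincr1-/- ESCs, a 2.15-fold decrease (log2 fold change -1.04, adjusted p = 0.00872). Thus the genotypes were apart in both genes, and further apart in Epcam.

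Of the cytoplasmic side, Tjp3 (zonula occludens 3), a tight junction scaffold, was at 3.0 and 3.34 FPKM in wild-type and at 1.66 and 1.25 FPKM in Trincr1-/- ESCs (log2 fold change -0.77, adjusted p = 0.0293). Cgn (cingulin), which ties tight junctions to actomyosin, was at 1.75 and 1.47 and at 0.603 and 0.451 FPKM (log2 fold change -0.77, adjusted p = 0.0312). Rab25, a small GTPase of epithelial recycling endosomes, was at 2.06 and 1.82 and at 0.759 and 0.564 FPKM (log2 fold change -0.82, adjusted p = 0.0339). All 3 were low in both genotypes, at a few FPKM or less, and all 3 lost their call whichever sample was left out. The main scaffold Tjp1, by contrast, was at 17.8 and 17.9 FPKM in wild-type and 15.5 and 16.6 FPKM in Trincr1-/- ESCs (adjusted p = 0.297), and of the 13 genes tested for cell adhesion and tight junction scaffolds Crb3 was the 1 that passed.

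The membrane protease matriptase and its inhibitors fell together. St14, which encodes matriptase, was at 16.6 and 18 FPKM in wild-type and at 12 and 11.6 FPKM in Trincr1-/- ESCs (log2 fold change -0.51, adjusted p = 0.040). Spint1 was at 40.3 and 42.9 and at 31.9 and 30.8 FPKM (log2 fold change -0.40, adjusted p = 0.0419). Spint2 was at 72.6 and 71.3 and at 49.8 and 52.3 FPKM (log2 fold change -0.49, standard error 0.04, adjusted p = 0.00498). Spint2 had the smallest standard error of the 13 and passed whichever sample was left out. Prss8, a partner protease of matriptase, did not pass (log2 fold change -0.42, adjusted p = 0.182).

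Transcription factors and splicing factors of the list, with Grhl2 as the exception, did not pass the test. Elf3, Ovol2, Grhl1 and Grhl3 had log2 fold changes from -0.15 to -0.03, and the splicing regulators Esrp1 and Esrp2 had -0.42 and -0.14. Marveld3 was listed at 0 in both knockout samples and at 0.50 and 0.554 FPKM in wild-type ESCs (adjusted p = 0.0754). The keratin Krt18 had a log2 fold change of -0.58 (adjusted p = 0.0595), and its partner Krt8 had -0.19.

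**Figure D2:**
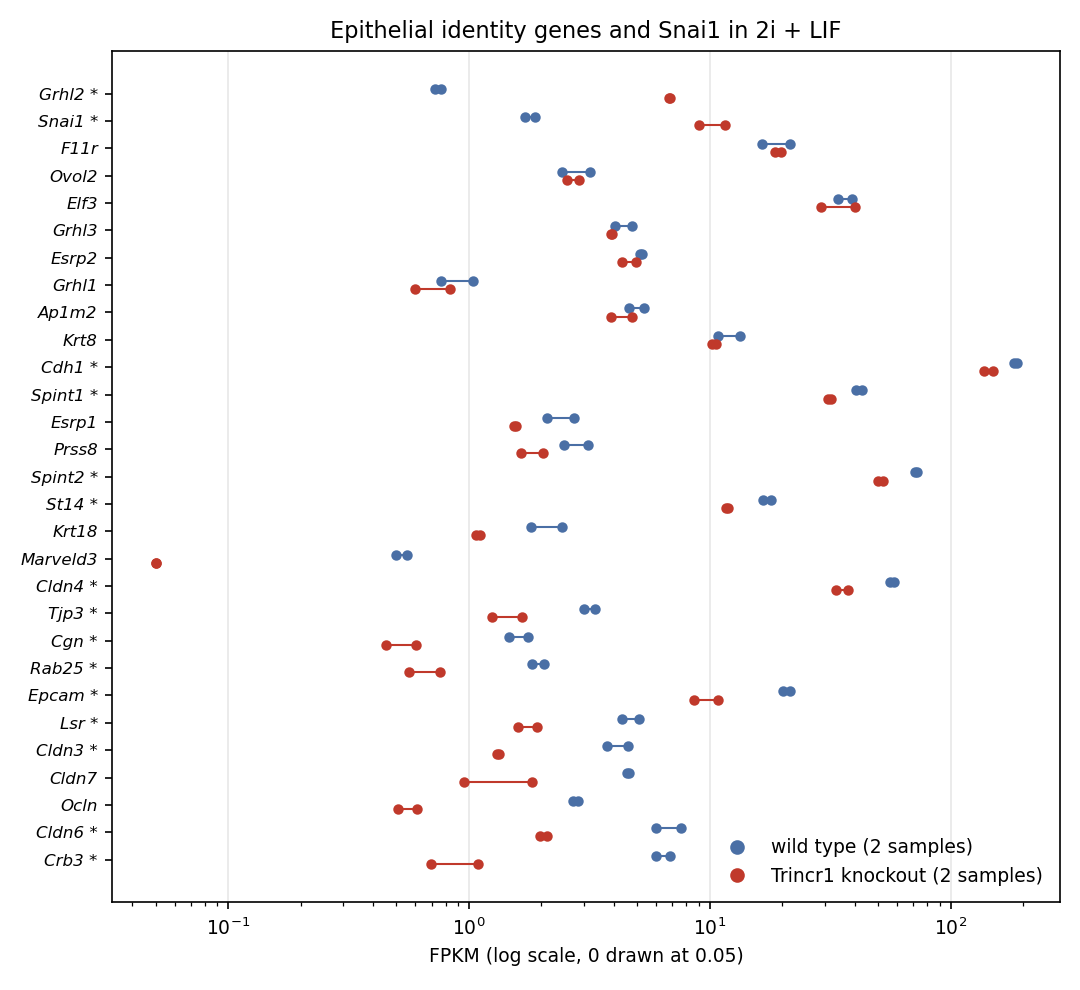
FPKM on a log axis of the epithelial identity genes above 0 FPKM in at least 2 of the 4 samples, and of Snai1, with 2 wild-type samples (blue) and 2 Trincr1-/- samples (red) per gene in 2i + LIF, joined by a line. Stars mark genes past the threshold: 13 lie lower in Trincr1-/- ESCs, from Crb3 at the bottom to Cdh1, and Grhl2 and Snai1 at the top lie higher.

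Grhl2 and Snai1 had the largest rises of all called genes on the log2(FPKM + 1) scale. Grhl2, on chromosome 15 at 37233035 to 37363569, activates Cdh1 and claudin genes in epithelia. It was at 0.768 and 0.72 FPKM in wild-type and at 6.85 and 6.74 FPKM in Trincr1-/- ESCs, a 9.13-fold rise (log2 fold change 2.16, standard error 0.16, adjusted p = 0.00271). Snai1, on chromosome 2 at 167538194 to 167542814, drives epithelial to mesenchymal transition. It was at 1.88 and 1.71 FPKM in wild-type and at 8.98 and 11.5 FPKM in Trincr1-/- ESCs, a 5.72-fold rise (log2 fold change 2.00, standard error 0.18, adjusted p = 0.00514). By the FPKM ratio alone, some lower genes exceed Snai1, among them Kcp (6.55-fold) and Cd200 (7.69-fold). In each gene the samples of a genotype lay close together and far from the other genotype. Snai1 was called in 5 of the 8 fits without 1 sample, and Grhl2 in all 8.

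The other 13 genes tested for EMT factors and mesenchymal proteins did not pass. Vim (vimentin) was at 187 and 188 FPKM in wild-type and at 243 and 256 FPKM in Trincr1-/- ESCs (log2 fold change 0.41, adjusted p = 0.189), and Fn1 (fibronectin) was at 185 and 171 and at 199 and 210.5 FPKM (log2 fold change 0.20, adjusted p = 0.17). Zeb1 had a log2 fold change of -0.09 with an interval of -0.43 to 0.26, Twist1 had -0.10, and Cdh2 (N-cadherin) had -0.06. The list had a median of -0.03. Thus Snai1 was the 1 member past the threshold, which 1.21% of all genes tested passed.

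Cdx2, a caudal homeobox factor of trophectoderm and the posterior embryo and a Wnt target, was at 0.727 and 0.766 FPKM in wild-type and at 2.6 and 3.43 FPKM in Trincr1-/- ESCs (log2 fold change 1.19, standard error 0.14, adjusted p = 0.012). Tnfrsf19, a receptor that Wnt signaling induces, was at 4.38 and 4.48 and at 7.55 and 8.27 FPKM (log2 fold change 0.71, adjusted p = 0.0221). They were the 2 of 16 direct Wnt targets tested that passed, and 0 fell, beside 0.350% of all genes that rose and 0.855% that fell. Tnfrsf19 lost its call whichever sample was left out. In all, 5 of the 16 had an unadjusted p under 0.05, beside 14.6% of all genes tested. The median of the list was 0.07, and beyond the 2 that passed, 3 more members had an unadjusted p under 0.05, all of them higher. Of these Lef1 was at 1.81 and 1.9 and at 3.67 and 3.6 FPKM (adjusted p = 0.106), Axin2, a feedback inhibitor of Wnt signaling, had a log2 fold change of 0.38 and Sp5 had 0.38. Other trophoblast genes did not pass: Cdx2 was the 1 of 19 genes called on that list, whose median was -0.01, and Eomes was at 3.16 and 2.93 FPKM in wild-type and 1.88 and 2.06 FPKM in Trincr1-/- ESCs (adjusted p = 0.144).

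Kcp encodes a secreted protein that enhances BMP signaling, and it was at 0.333 and 0.434 FPKM in wild-type and at 2.35 and 2.68 FPKM in Trincr1-/- ESCs (log2 fold change 1.34, standard error 0.12, adjusted p = 0.00498). It was the 1 call among 16 BMP pathway and Id genes, beside 1.21% of all genes tested. Id1 and Id2, the usual readout of BMP signaling, had log2 fold changes of 0.41 and -0.81 and adjusted p-values of 0.338 and 0.129. Ebf1, a transcription factor known from B cells and mesoderm, was at 2.0 and 1.61 FPKM in wild-type and 5.09 and 4.76 FPKM in Trincr1-/- ESCs (log2 fold change 1.08, adjusted p = 0.0461). Cd200, a surface glycoprotein, was at 0.298 and 0.136 and 1.96 and 1.37 FPKM (log2 fold change 1.13, adjusted p = 0.0186), but lost its call whichever sample was left out.

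Of 28 imprinted genes tested, 2 rose and 0 fell, beside 0.350% of all genes that rose and 0.855% that fell. Peg10, a paternally expressed gene derived from a retrotransposon, was at 8.96 and 7.4 FPKM in wild-type and at 17.6 and 19.9 FPKM in Trincr1-/- ESCs (log2 fold change 1.11, adjusted p = 0.0124). Mest, also paternally expressed, was at 33.8 and 33 and at 44.9 and 46.1 FPKM (log2 fold change 0.43, adjusted p = 0.0385). Both lie on chromosome 6. The list median was 0.09, and Peg3, Phlda2, Gnas and Ndn had an unadjusted p under 0.05 with values above 0, the nearest of them Peg3 (log2 fold change 0.40, adjusted p = 0.051).

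Klhl13 had the third largest rise of the called genes on the log2(FPKM + 1) scale. This adaptor of a CUL3 ubiquitin ligase, on the X chromosome, was at 37.4 and 37.9 FPKM in wild-type and at 110.4 and 117 FPKM in Trincr1-/- ESCs, a 3.02-fold rise (log2 fold change 1.57, standard error 0.14, adjusted p = 0.00498). Chd3, a chromatin remodeler of the NuRD complex, was at 13.1 and 14.4 and at 28.4 and 34.5 FPKM (log2 fold change 1.13, adjusted p = 0.00872). Cotl1, an F-actin binding protein, was at 5.21 and 5.97 and at 12.5 and 12.1 FPKM (log2 fold change 1.01, adjusted p = 0.00521). In all 3 the samples of a genotype lay within a narrow range of each other. Ido2, an enzyme of tryptophan breakdown, had a log2 fold change of 0.93, and the uncharacterized 4930502E18Rik had 1.06.

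For 3 of the 15 largest rises the level in wild-type ESCs was at or near 0. Hist1h2bm, a replication-dependent histone H2B gene with close copies, was listed at 0 in both wild-type samples and at 2.03 and 1.8 FPKM in Trincr1-/- ESCs (adjusted p = 0.0239). The antisense RNA RP23-182F9.6 was listed at 5.51e-08 and 0.000380 FPKM in wild-type and at 1.35 and 2.17 FPKM in Trincr1-/- ESCs (adjusted p = 0.0293). Ube4bos3, also antisense, was at 0 and 0.155 FPKM in wild-type and at 1.07 and 1.45 FPKM in Trincr1-/- ESCs (adjusted p = 0.0184). Whether the counting used strand is not stated, so reads of the partner gene cannot be told apart from those of an antisense RNA.

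Among called genes, the largest fall after Gm2694 on the log2(FPKM + 1) scale was in Gldc, on chromosome 19 at 30098448 to 30175418. It encodes glycine decarboxylase, the enzyme that feeds one-carbon units from glycine into the folate pool of the mitochondria. It was at 23.8 and 25.3 FPKM in wild-type and at 4.02 and 4.02 FPKM in Trincr1-/- ESCs, a 6.11-fold decrease (log2 fold change -2.35, standard error 0.07, adjusted p = 3.54e-05), which is the smallest adjusted p of all genes tested. It was the 1 call among 17 genes of glycine, serine and threonine metabolism, beside 1.21% of all genes tested. The list median was -0.13, and 13 of the 17 were below 0. An unadjusted p under 0.05 was found for 5, beside 14.6% of all genes, and all 5 were lower in Trincr1-/- ESCs. Among them, Phgdh, Psat1, Psph and Mthfd2 had log2 fold changes between -0.33 and -0.20 with adjusted p-values of 0.0995 or more.

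Uchl1, a ubiquitin hydrolase abundant in neurons and germ cells, was at 42.2 and 52.8 FPKM in wild-type and at 9.99 and 9.88 FPKM in Trincr1-/- ESCs, a 4.78-fold decrease (log2 fold change -2.14, standard error 0.13, adjusted p = 0.00121). Bex1, a small adaptor protein encoded on the X chromosome, was at 217 and 233 and at 76.9 and 78.5 FPKM (log2 fold change -1.52, standard error 0.08, adjusted p = 0.000976). Its relative Bex4, close to it, was at 118 and 132 and at 54.5 and 57.8 FPKM (log2 fold change -1.14, adjusted p = 0.00252). All 3 passed whichever sample was left out. Of the 10 genes tested from the group of Bex, Tceal and Uchl1 these 3 fell and 0 rose, beside 0.855% and 0.350% of all genes. The group was assembled with earlier results of these data known, and the other members had log2 fold changes between -0.23 and 0.01. Since Bex genes resemble each other, reads may have been shared between them.

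Pkp2 (plakophilin 2), which anchors desmosomes, was at 4.82 and 5.72 FPKM in wild-type and at 1.15 and 1.26 FPKM in Trincr1-/- ESCs (log2 fold change -1.50, adjusted p = 0.00252). Hook1, a linker of cargo to dynein, was at 3.64 and 4.17 and at 0.288 and 0.518 FPKM, a 9.69-fold decrease (log2 fold change -1.81, standard error 0.13, adjusted p = 0.00271). Both passed whichever sample was left out. Tom1l1, an adaptor of endosomal sorting, was at 8.48 and 9.67 and at 2.04 and 2.16 FPKM (log2 fold change -1.70, adjusted p = 0.0142).

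Tesc, a calcium-binding regulator of a sodium proton exchanger, was at 3.11 and 3.8 FPKM in wild-type and at 0.201 and 0.359 FPKM in Trincr1-/- ESCs, but with the largest standard error of the 15 largest falls (log2 fold change -1.80, standard error 0.29, adjusted p = 0.0419). Slain1, a microtubule plus-end protein, was at 2.88 and 2.2 and at 0.155 and 0.374 FPKM (log2 fold change -1.48, adjusted p = 0.00686). H2-K1, a classical MHC class I heavy chain, was at 9.54 and 9.66 and at 2.94 and 3.27 FPKM (log2 fold change -1.37, adjusted p = 0.00348). Reads of H2-K1 may be shared with other class I genes. The pseudogenes Gm9174 and Gm8623 were listed at 0 in both knockout samples, with 3.55 and 1.98 FPKM for Gm9174 and 1.52 and 2.34 FPKM for Gm8623 in wild-type ESCs, and their reads may come from parent genes. Tuba3a, an α-tubulin of the testis, was the 1 call among 14 methylation-sensitive germline genes, beside 1.21% of all genes tested. It was at 22.9 and 24.7 FPKM in wild-type and 11.5 and 12.1 FPKM in Trincr1-/- ESCs (log2 fold change -0.96, adjusted p = 0.0165). The list median was -0.26, and 11 of the 14 were below 0. An unadjusted p under 0.05 in limma was found for 4 of them, all lower, beside 14.6% of all genes tested.

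The pluripotency network stood near its wild-type level in this medium. Of 15 naive pluripotency factors and 10 core factors tested, 0 passed the threshold in limma. An unadjusted p under 0.05 was found for 3 of the 15 and 4 of the 10, beside 14.6% of all genes tested. Their medians were 0.02 and -0.07. Pou5f1 (Oct4) was at 704 and 705 FPKM in wild-type and at 684 and 726 FPKM in Trincr1-/- ESCs. Its log2 fold change had a 95% interval of -0.10 to 0.10. Sox2 was at 149 and 144 and at 157 and 150.4 FPKM, with an interval of -0.08 to 0.22. The genotypes overlapped in Pou5f1, and the knockout samples of Sox2 lay just above wild type.

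Nanog was at 339.9 and 343 FPKM in wild-type and at 329 and 323 FPKM in Trincr1-/- ESCs, with an interval of -0.23 to 0.10. Zfp42 (Rex1), a marker of the naive state, was at 244 and 251 and at 252 and 248 FPKM, with an interval of -0.10 to 0.14. The nearest to the threshold were Fgf4, the main FGF ligand of ESCs (log2 fold change -0.22, adjusted p = 0.0911), and the RNA-binding protein Lin28a (log2 fold change 0.28, adjusted p = 0.119). Over both lists, the intervals ran from -0.44 to 0.56, so a log2 fold change above 0.56 or below -0.44 lies outside the interval of each core and naive factor. Formative and primed epiblast genes gave 1 call of 11, beside 1.21% of all genes tested, namely Cldn6, which is also on the epithelial list.

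Target genes of the ERK pathway gave no call either. Of the 23 genes tested for ERK feedback and ETS targets 0 passed in limma, and the median was -0.05. An unadjusted p under 0.05 was found for 3, beside 14.6% of all genes tested. Dusp6, a phosphatase of ERK that ERK signaling induces, was at 5.6 and 5.11 FPKM in wild-type and at 5.77 and 4.12 FPKM in Trincr1-/- ESCs, with an interval of -0.48 to 0.26. Spry4 was at 3.38 and 4.04 and at 4.66 and 3.32 FPKM, with an interval of -0.30 to 0.45. Etv5, an ETS factor downstream of FGF, was at 110.3 and 114 and at 107 and 106 FPKM, with an interval of -0.20 to 0.06.

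In these genes the knockout samples fell within or close to the range of wild type. The 3 with unadjusted p-values under 0.05 were Emp1, at 8.01 and 10.9 FPKM in wild-type and 16.6 and 14.7 FPKM in Trincr1-/- ESCs (adjusted p = 0.105), Etv1 (log2 fold change 0.63, adjusted p = 0.182) and Lif (log2 fold change -0.72, adjusted p = 0.137). Intervals of the low genes are wide: over the 23 genes they ran from -1.16 to 1.07, so 2-fold changes of single targets are not all outside them.

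**Figure D3:**
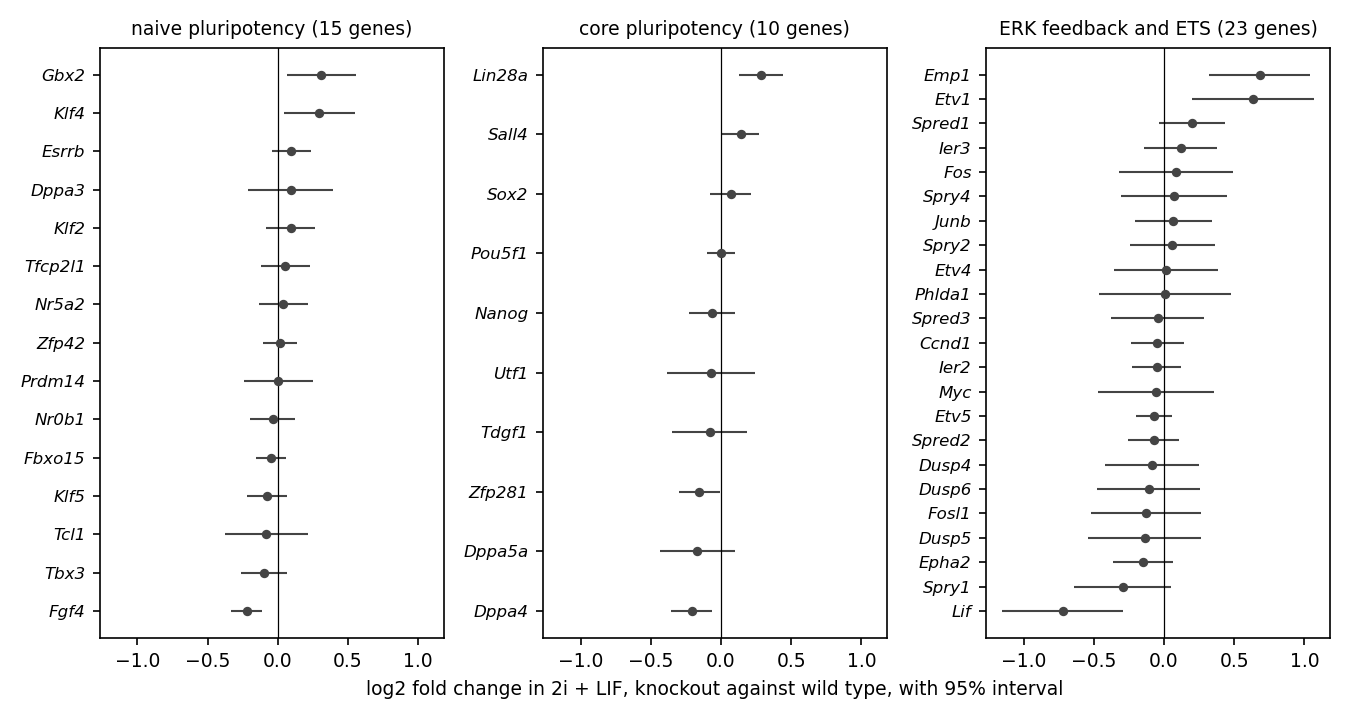
Log2 fold change of Trincr1-/- against wild-type ESCs in 2i + LIF for naive pluripotency factors (15 genes), core pluripotency factors (10) and ERK feedback and ETS target genes (23), with limma 95% intervals as bars. Most intervals cover 0 and 0 of the 48 genes passed the threshold after adjustment. Lif is lowest at -0.72 and Emp1 highest at 0.68.

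Other lineages and pathways gave few or no calls. In limma, 0 genes were called among 10 genes of primitive streak and caudal identity, 8 of endoderm, 12 of the neural lineage, 15 of the LIF pathway, 15 of the smooth muscle type cytoskeleton, 12 CDK inhibitors and G1 cyclins, 13 mitochondrially encoded genes and 9 polyadenylated histone genes. Unadjusted p-values under 0.05 were found for 3, 0, 1, 2, 0, 2, 3 and 1 of them, beside 14.6% of all genes tested. The 4 tested markers of the 2-cell-like state were all above 0 without a call, and Zscan4c was at 0.238 and 0.0791 FPKM in wild-type and at 0.707 and 0.655 FPKM in Trincr1-/- ESCs (adjusted p = 0.104). Medians of these lists lay between -0.05 and 0.10, other than 0.32 for the 2-cell-like markers.

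**Figure D4:**
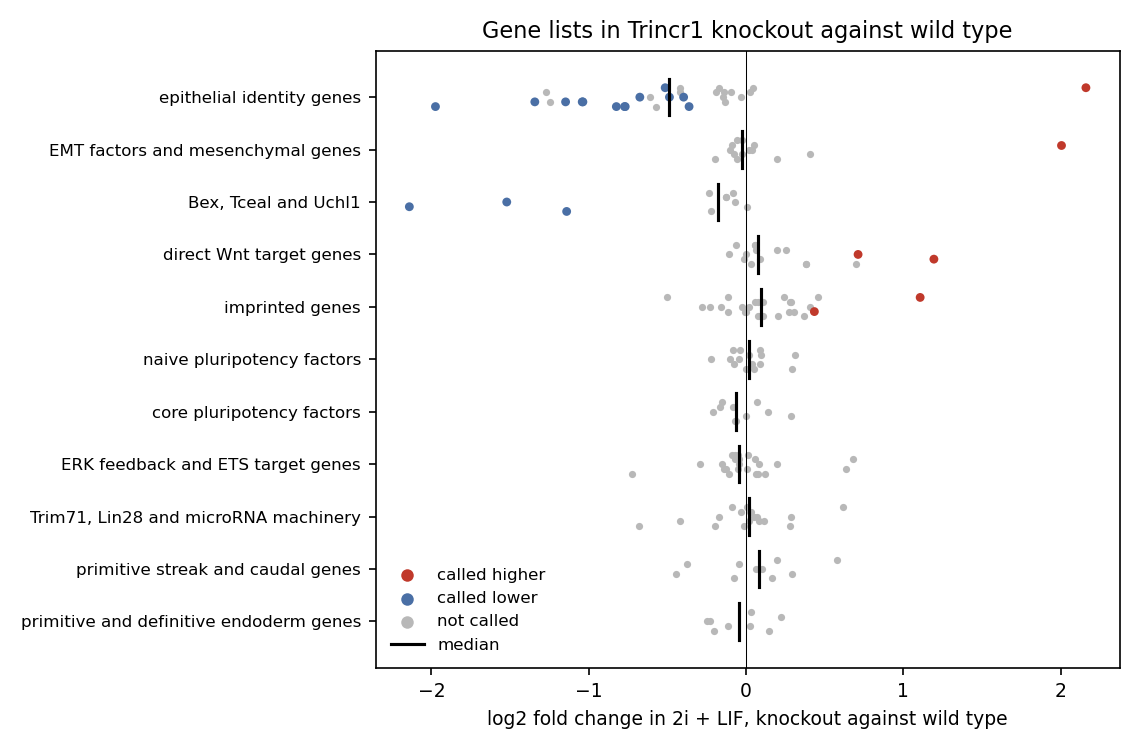
Log2 fold change in 2i + LIF of each gene tested on 11 of the gene lists, with called genes in red (higher) or blue (lower), others in grey and the list median as a black bar. The epithelial list is shifted to the left with a median of -0.49, the Bex, Tceal and Uchl1 list holds 3 called genes to the left, and the pluripotency and ERK lists lie around 0. The lists were assembled with earlier results of these data known.

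Called genes that lie close together were found at 3 places. A place was defined by at least 3 genes called in the same direction within 1 Mb, and its borders are the outermost of them. The counts of called genes in a place thus follow partly from this rule. Of all genes tested, 0.855% fell, and how many such places would arise by chance was not tested. On the X chromosome, between 73033980 and 73292976, 6 of 11 genes tested fell, and 10 of 11 had a value below 0. All but one of the 6 are Xlr genes, a family of lymphocyte-regulated X-linked genes with near-identical copies, some of them imprinted. Xlr5a was at 5.03 and 5.38 FPKM in wild-type and at 1.6 and 1.63 FPKM in Trincr1-/- ESCs (log2 fold change -1.25, adjusted p = 0.00529). Xlr3c had a log2 fold change of -1.06, Xlr4a -1.0, Xlr5c -0.92 and Xlr5b -0.80, and the adjacent Pnma5 was at 20.6 and 20.3 and at 14.8 and 12.8 FPKM (log2 fold change -0.54, adjusted p = 0.0425). Reads can be split between copies, so the members are not independent. Xlr4c, Xlr3a, Xlr3b and Xlr4b, which were not called, had values from -0.60 to -0.41.

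On chromosome 7, between 43781053 and 44229617, 3 kallikrein serine protease genes fell. Klk1 was at 3.26 and 3.53 FPKM in wild-type and at 0.374 and 0.888 FPKM in Trincr1-/- ESCs (log2 fold change -1.45, adjusted p = 0.0121). Klk8 was at 3.36 and 4.12 and at 0.741 and 0.882 FPKM (log2 fold change -1.38, adjusted p = 0.0112), and Klk10 was at 8.13 and 8.0 and at 5.26 and 4.63 FPKM (log2 fold change -0.61, adjusted p = 0.0425). The only other gene tested in between, Klk1b22, had -0.15. Kallikreins are a multigene family, so reads may again be shared. On chromosome 8, between 70718542 and 71725716, 3 of 41 genes fell, namely Gm3336 (-1.23), the antiviral membrane protein Bst2 (-0.51) and the endocytic adaptor Fcho1 (-0.70), while the median of the 41 was -0.01.

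By chromosome, the share of genes called ranged from 0.34% on chromosome 13 to 2.51% on the X, among chromosomes 1 to 19 and X. The median log2 fold change of genes above 1 FPKM lay between -0.01 and 0.04 on each of these 20 chromosomes. 

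The effect of the knockout in PD + LIF was measured in other samples, so the 2 comparisons share no library. Both come from 1 fit with 1 spread per gene, so a gene of small spread is more easily called in both. The labels also do not say whether both media used the same cell lines, and a fixed difference between lines would recur in both. The 2 sets of calls are therefore not independent. Of the 54 genes called higher in 2i + LIF, 41 (75.9%) had a value above 0 in PD + LIF and 23 were called higher there, beside 6.29% of all genes tested. Of the 132 called lower, 108 (81.8%) had a value below 0 and 75 were called lower there too, beside 5.77%. Of all genes tested, 55.5% had the same sign in both media and 12.1% were called in PD + LIF. A further 9 of the 186 were called in the opposite direction.

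Grhl2 and Snai1 rose in both media. Grhl2 was at 1.63 and 0.937 FPKM in wild-type and 6.16 and 5.42 FPKM in Trincr1-/- ESCs in PD + LIF, a log2 fold change of 1.59, and its difference between media did not pass (adjusted p = 0.224). Snai1 was at 3.24 and 2.06 and at 12.4 and 11 FPKM (1.81, adjusted p of the difference = 0.741). Among the 13 epithelial genes that fell, Crb3, Cldn6, Cldn3, Epcam, Cdh1, Spint2, St14 and Tjp3 fell in PD + LIF too without a difference that passed. For Crb3 the log2 fold change there was -1.34, and for Cdh1 it was -0.33. Rab25 and Cldn4 fell further in PD + LIF, with log2 fold changes of -1.89 and -1.45 there, whereas Lsr and Cgn were not called.

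Lsr was at 17.2 and 15.7 FPKM in wild-type and 21.4 and 18.4 FPKM in Trincr1-/- ESCs in PD + LIF (log2 fold change 0.26, difference between media -1.30, adjusted p = 0.0272). Cgn was at 11.4 and 12.9 and at 13.7 and 12.9 FPKM in PD + LIF (difference -0.90, adjusted p = 0.049). Both were several times more abundant in PD + LIF than in 2i + LIF in wild-type ESCs, and the knockout level in 2i + LIF was the lowest of the 4 groups. Spint1 did not pass in PD + LIF, and its difference did not pass either (adjusted p = 0.374).

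In all, the effect on 48 of the 186 genes differed between the media in a test of the difference itself, against 1.81% of all genes tested. In 41 of the 48 the effect was the larger one in 2i + LIF. The 186 were chosen by their effect in 2i + LIF, which is part of this difference. That choice favours both the higher share and the larger effect in 2i + LIF, so neither shows a stronger effect in that medium. Bex1 is the most abundant of those that fell: it was at 213 and 247 FPKM in wild-type and 255 and 231 FPKM in Trincr1-/- ESCs in PD + LIF, next to 217 and 233 and 76.9 and 78.5 FPKM in 2i + LIF (difference -1.60, adjusted p = 0.00608). Gldc fell in both media, but less in PD + LIF, where it was at 49.7 and 53.6 and at 18.8 and 19.3 FPKM (difference -0.95, adjusted p = 0.0188). Jam3, a junctional adhesion molecule, fell in 2i + LIF from 16.7 and 16.1 to 7.71 and 8.26 FPKM and rose in PD + LIF from 6.27 and 6.05 to 8.26 and 9.38 FPKM. Its difference was -1.41 (adjusted p = 0.0131).

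Genes that rose in 2i + LIF and were not called in PD + LIF include Cdx2, Cotl1, Ido2 and 4930502E18Rik. Cdx2 was under 0.2 FPKM in every PD + LIF sample (difference 1.11, adjusted p = 0.043). In PD + LIF, Ido2 was at 0.223 and 0.259 FPKM in wild-type and 0.135 and 0.167 FPKM in Trincr1-/- ESCs. There 4930502E18Rik was at 0.177 and 0.141 and at 0.140 and 0.185 FPKM. At such levels the same ratio gives a much smaller value on the log2(FPKM + 1) scale, so for these 3 genes the difference is mostly the 2i + LIF effect. Cotl1 was at 77.8 and 69 FPKM in wild-type and 70.6 and 79.6 FPKM in Trincr1-/- ESCs in PD + LIF. S100a13, a calcium-binding protein, rose in 2i + LIF from 3.49 and 3.86 to 6.11 and 7.65 FPKM and fell in PD + LIF from 23.4 and 22.6 to 11.3 and 12.8 FPKM (difference 1.63, adjusted p = 0.0188). Hexa, a lysosomal hexosaminidase, moved the same way (0.41 and -0.67). Anxa2, an annexin at the membrane, and Mest rose in both media and more in PD + LIF, where their log2 fold changes were 1.31 and 1.16.

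**Figure D5:**
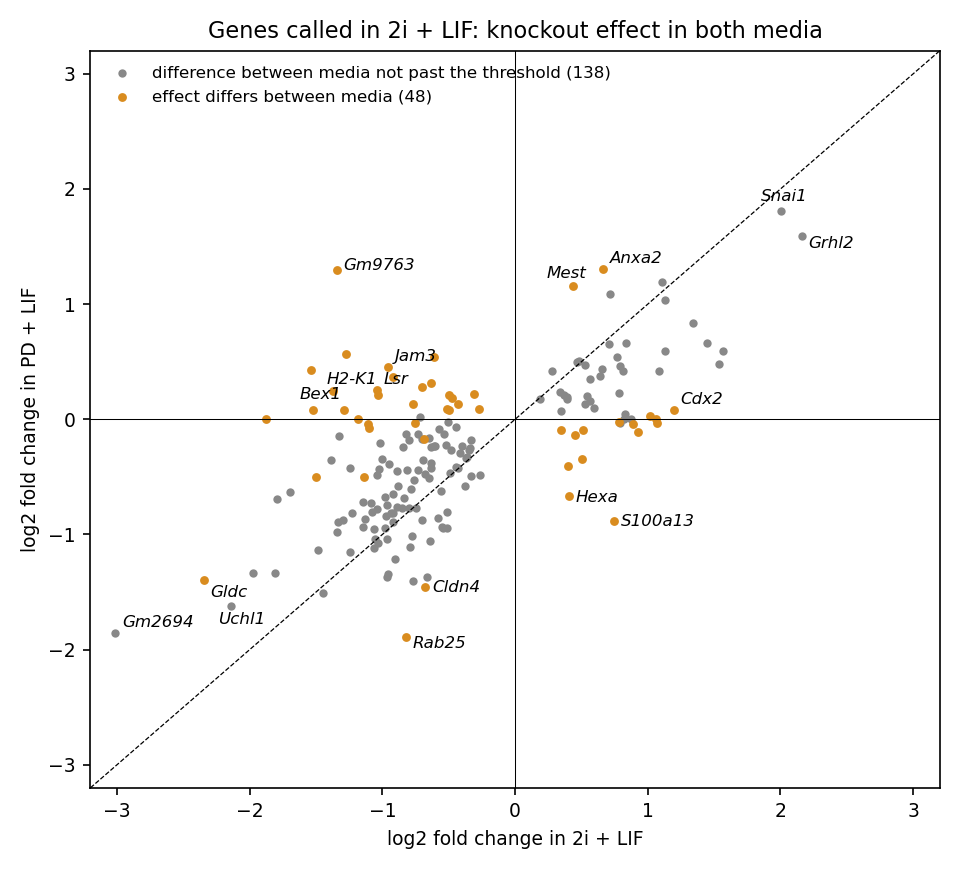
Log2 fold change of Trincr1-/- against wild-type ESCs in 2i + LIF (x axis) and in PD + LIF (y axis) for the 186 genes called in 2i + LIF, with the line of equal effect dashed. The 48 genes whose effect differs between media (orange) lie mostly near 0 on the y axis, and Grhl2, Snai1, Uchl1 and Gm2694 lie near the line or on the same side of 0 in both media.

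RNA bound by FLAG-tagged TRIM71 was measured in the same medium, in ESCs that overexpress it, and the deposited table holds 1 value per transcript without replicates. Of the genes tested here, 9478 had more than 2 FPKM in the input, and 481 of them (5.07%) passed a fold above 3 in the IP over the input. Among the called genes the same held for 7 of 136 (5.15%). By direction, these were 4 of 37 genes that rose (10.8%) and 3 of 99 that fell (3.03%). Genes above the fold were called in the knockout in 1.46% of cases and the others in 1.43%, with median log2 fold changes of 0.02 and 0.00. The IP library had 4370 of the 9478 genes at 0. Per the paper, RNA of the RIP experiment went straight into cDNA synthesis, while total RNA was poly(A)-selected. The paper does not state how the input was prepared, so these folds may also compare 2 preparations.

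The 7 genes are Gm2694 itself, with a fold of 69.7 in the IP, Chd3 (4.28), Serping1 (8.56), Mpp1 (3.68) and Ifitm1 (4.09), which rose, and Tmem102 (14.4) and Rasgrp2 (3.29), which fell. Serping1, the C1 inhibitor of complement, was at 6.45 and 4.85 FPKM in wild-type and at 11.1 and 11.1 FPKM in Trincr1-/- ESCs (log2 fold change 0.88, adjusted p = 0.0229). Mpp1, a membrane scaffold protein, was at 14.6 and 14.8 and at 22.9 and 22.6 FPKM (log2 fold change 0.60, adjusted p = 0.031). Ifitm1, an interferon-induced membrane protein, was at 190.4 and 185 and at 249.7 and 283 FPKM (log2 fold change 0.50, adjusted p = 0.0298). All 3 moved less than 2-fold. Rasgrp2, an exchange factor for Rap GTPases, was at 68.1 and 68.4 and at 43.5 and 49.2 FPKM (log2 fold change -0.55, adjusted p = 0.0201), and Tmem102 was at 6.69 and 6.15 and at 3.43 and 4.03 FPKM (log2 fold change -0.65, adjusted p = 0.0419).

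For its PD + LIF samples the study used a rule of size, which is applied here to 2i + LIF. It keeps a gene if its 2 group means average 1 FPKM or more and their ratio exceeds 2. A floor, by which a mean below 0.1 FPKM counts as 0.1, was added here. By it, 105 genes (0.680%) lay above wild type and 196 (1.27%) below it. The rule involves no test. Of the 186 genes called by limma, 15 that rose and 66 that fell passed it as well, and the other 39 and 66 changed less than 2-fold or were too low. Of the 301 genes past the rule, samples of the genotypes did not overlap in 249.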

How the data were processed

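The poly(A) RNA-seq table covers 8 samples in 4 groups of 2, both genotypes in each of the 2 media. Per the labels and methods, the authors aligned reads with STAR 2.5.0 to mm9 and deposited normalized FPKM values from Cufflinks 2.2.1 per gene and sample. The gene coordinates in the deposited FPKM table are those of GRCm38: 96.6% of 30293 genes with a shared symbol start within 10000 bases of their place in GRCm38.p6. Of 41260 entries, those for 39 repeated identifiers were reduced to the highest mean, and 27 symbols that had become numbers were restored. Columns of the authors' own comparison in the IP table hold their fold of enrichment and were not used. IP and input FPKM are pooled values that the authors deposited, with a score for each that the authors scaled to the mean of its dataset and deposited beside it, which gave the fold of IP over input. They were matched for 12857 genes by identifier and 157 by symbol.

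Log2(FPKM + 1) was fitted with limma 3.58.1 in R 4.3.3, all 4 groups in 1 model with a variance trend and 4 residual degrees of freedom, and p-values were adjusted by Benjamini-Hochberg over all 15430 genes at a threshold of 0.05. Log2 fold changes are on this scale and understate changes of low genes, while values written as N-fold are ratios of mean FPKM with no pseudocount. FPKM sums ranged from 497115 to 519651 over the 8 samples, so values were not rescaled. Depth was estimated from the smallest steps of low values. The fit was first run on simulated data with independent samples and with changes placed only in more abundant genes. That run does not bear on low genes or on real samples that share a cell line. Promoter windows came from RefSeq. Python 3.11.15, pandas 2.3.3, numpy 2.4.6 and matplotlib 3.10.9 were used.

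The members and gene lists were chosen with earlier results of these data known. Named genes are the 15 largest rises and 15 largest falls among called genes with replicates that do not overlap, called genes of the lists, Gm2694 with its neighbours, genes of the study's pathway, called genes whose effect differs between media, called genes bound in the IP, and called genes within 1 Mb of at least 2 others called in the same direction. Alternatives varied the pseudocount, the filter, scaling, the variance model, a replicate block, the samples and the fold rule. IP samples of the empty vector were not used here. Results of some single genes are not reported here.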

Additional observations from a re-analysis of the deposited data

Results flagged for a closer look

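For 48 named genes the effect of the knockout in 2i + LIF differed from that in PD + LIF in a test of the difference (limma, adjusted p under 0.05). Each value given below is the log2 fold change in 2i + LIF minus that in PD + LIF, and its cause was not tested. Leaving out 1 sample reduced the number of all genes whose difference passed from 279 to between 3 and 34, so the calls rest on all 8 samples. The call in 2i + LIF itself was lost whichever sample was left out for S100a13, Ifitm1, Tbc1d13, Hexa, Atp6ap1, Mfn1, Msmo1, Tnks1bp1, Klk10, Cgn, Rab25 and AC098736.2.

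Of genes that rose in 2i + LIF, the difference was 1.63 for S100a13, 1.11 for Cdx2, 1.10 for Ube4bos3, 1.08 for Hexa, 1.06 for 4930502E18Rik and 1.04 for Ido2. It was 0.98 for Cotl1, 0.93 for Lrrc15, 0.85 for Ifitm1, 0.81 for the sphingomyelin synthase Sgms1 and 0.81 for Atp6ap1, an accessory subunit of the vacuolar proton pump. It was 0.61 for C1d, 0.59 for Tbc1d13 and 0.44 for Mfn1, a mitofusin of the outer mitochondrial membrane. Of these, S100a13, Hexa, Ifitm1 and Atp6ap1 were called lower in PD + LIF. Anxa2 (-0.65) and Mest (-0.73) rose more in PD + LIF.

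Of genes that fell, 2 fell more in PD + LIF, Rab25 with a difference of 1.06 and Cldn4 with 0.78. Gldc (-0.95), Bex4 (-0.64) and Pkp2 (-1.0) fell in both media and more in 2i + LIF. Of the others, junction and membrane genes were Jam3 (-1.41), Lsr (-1.30), Emp2 (-1.29), Itga3 (-1.07), Cgn (-0.90) and the NHERF1 scaffold Slc9a3r1 (-0.66). Jam3 was called higher in PD + LIF, as were Klk10 (-1.15), Ddah1 (-0.95), Gm9763 (-2.64) and Msmo1 (-0.53), an enzyme of sterol synthesis.

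The difference was -1.60 for Bex1, -1.62 for H2-K1, -1.37 for the calcium pump Atp2a3, -1.25 for calretinin (Calb2), -1.03 for Crmp1 and -0.99 for Fgfbp1, a carrier of FGF. It was -0.73 for the glutamine transporter Slc38a1, -0.71 for Myo1c, -0.60 for Hn1, -0.58 for Myef2, -0.56 for Tnks1bp1 and -0.51 for Crip1. For noncoding entries or pseudogenes it was -1.96 for Gm8623, -1.88 for Gm9174, -1.84 for AC098736.2 and -1.19 for Tbx3os1. Gm9174 and Tbx3os1 were listed at 0 in all 4 PD + LIF samples, and Gm9763 at 0 in wild-type PD + LIF and in knockout 2i + LIF samples. Calb2 was near the floor in PD + LIF, at 0.235 and 0.0701 FPKM in wild-type and 0.350 and 0.308 FPKM in Trincr1-/- ESCs.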

How the results depend on the processing

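The 186 calls in 2i + LIF became 111 with a replicate block (35 higher, 76 lower), 122 with no filter (81 lower) and 0 with only the 4 samples of 2i + LIF, with 2106 unadjusted p-values under 0.05. Replicate numbers did not pair the samples: deviations of same-numbered samples from their group means correlated between -0.0539 and 0.00634, and 62 of the 90 named calls stayed past the threshold under the replicate block. The cause of these shifts was not tested. Without 1 sample, 40 to 113 genes were called, 6 to 32 higher and 31 to 81 lower. Higher genes made up 29.0% of calls in the reported fit, 11.5% without the second wild-type sample in 2i + LIF and 38.9% without the first knockout sample. Genes whose effect differed between media numbered 279, or 39 with a replicate block, 138 with no filter, 88 with no variance trend and 3 to 34 without 1 sample. Past the fold rule were 301 genes, or 829 with a ratio above 1.5 (314 higher, 515 lower), 110 with a ratio above 3 (37 and 73), 58 with an average of at least 5 FPKM (22 and 36) and 331 to 409 without 1 sample (119 to 164 higher, 212 to 245 lower). Of the 90 named calls, 0 changed direction in any fit. In genes without a call, the sign changed when 1 sample was left out: log2 fold changes ran from -0.0036 to 0.0373 for Zfp42, from -0.0687 to 0.0782 for Shcbp1 and from -0.0432 to 0.0429 for Pou5f1. With 2 samples per group and 10300000 to 12200000 fragments in each of the 4 samples, genes under about 1 FPKM rest on few fragments, and a missed call does not show an equal level.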
